A study of Mus musculus with 31 samples.

Results

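The 4 Egr transcription factor genes and the 2 genes for their Nab corepressors were followed through 21 RNA sequencing libraries. Egr1, Egr2, Egr3, Egr4, Nab1 and Nab2 were taken by name, without use of any measured value. All 6 names were present, among 24062 gene names in the tables from mice and 24322 in those from cultured cells. Mice were C57BL/6 carrying a Nestin-EGFP transgene, whose promoter drives enhanced green fluorescent protein (EGFP) in neural stem cells and in offspring that still hold the protein. Pups were injected intraperitoneally on postnatal days 7, 8 and 9 with water or with midazolam (MDZ), a sedative benzodiazepine, at 10 mg/kg. EGFP-positive dentate gyrus cells were sorted on postnatal day 10 (P10) or at 8 weeks. The young groups were Control P10 (water) and MDZ P10 (midazolam). The older groups were Control 8w (water), MDZ 8w (midazolam) and RUN MDZ 8w (midazolam, then a running wheel). No running group without midazolam was listed. Each P10 library came from 1 mouse and 50000 cells, and each 8-week library pooled 3 to 5 mice and about 30000 cells. The cultured cells were neural stem cells from embryonic day 11 cortex of wild-type ICR mice, passaged more than 20 times and grown in bFGF and EGF at 20 ng/ml. Lentivirus carrying the M2rtTA transactivator was given to all of them. Control culture got nothing else, while Egr1 culture also received lentivirus for Egr1 with a Flag tag. Each of the 7 groups had 3 libraries, and nothing stated that the culture libraries were separate cultures, so their spread may be technical.

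Egr1 to Egr4 encode zinc finger transcription factors of the immediate early class, which are transcribed within minutes of growth factor or synaptic stimulation through ERK kinases and serum response factor. Nab1 and Nab2 encode corepressors that bind a repression domain of Egr1, Egr2 and Egr3 and recruit the NuRD chromatin remodelling complex. Nab2 is itself a target of Egr factors, so that it can act as negative feedback on them. In the dentate gyrus, Egr1 is best known for its induction in granule neurons by activity.

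In the GRCm38.p6 (mm10) annotation of RefSeq, Egr2 lies on chromosome 10 (67534469 to 67542188), Egr3 on chromosome 14 (70077317 to 70082613) and Egr4 on chromosome 6 (85511121 to 85513589). Nab1 lies on chromosome 1 (52455849 to 52500712) and Nab2 on chromosome 10 (127660918 to 127666703). Nab2 overlaps the end of Stat6 by 70 bases and Egr2 overlaps the long noncoding Gm32255 by 1712 bases. Whether counting used strand is not given in the sources used here, so reads in these stretches are uncertain. Since added Egr1 in culture bears on promoters that Egr factors can bind, the 250 bases before each listed start of Egr2, Egr4, Nab1 and Nab2 (RefSeq, GRCm38.p6) were searched on both strands for GCGTGGGCG, the classical Egr site, and its variant GCGGGGGCG. The shorter GTGGGCG, which lies inside GCGTGGGCG, was searched as well, as were the cyclic AMP response element TGACGTCA and the CArG box of serum response factor. Egr1 and Egr3 had no listed start in the set of windows used here, so they were not searched. Of 32851 such windows for all genes, 0.536% held GCGTGGGCG, 2.57% GCGGGGGCG, 7.02% GTGGGCG, 1.55% TGACGTCA and 1.47% a CArG box.

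The 3 Egr-type matches of the Nab1 window and the 3 matches of the Egr2 windows are shown because they are the letters that differ between the 4 members searched. Each is printed 5′ to 3′ on the strand of the gene, with the match in capitals. A match on the opposite strand appears as its reverse complement.
Nab1 site 1 (chr1:52500571-52500599, minus strand, GCGTGGGCG on the opposite strand): gccccgcggcCGCCCACGCcgggatctgc
Nab1 site 2 (chr1:52500539-52500567, minus strand, GCGTGGGCG): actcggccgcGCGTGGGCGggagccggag
Nab1 site 3 (chr1:52500468-52500496, minus strand, GCGGGGGCG): gcggggcgggGCGGGGGCGgcggaggtgg
Egr2 site 1 (chr10:67535458-67535484, plus strand, GTGGGCG on the opposite strand): gcaatcctccCGCCCACgtgcaccgac
Egr2 site 2 (chr10:67537484-67537513, plus strand, CArG box): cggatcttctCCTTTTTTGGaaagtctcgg
Egr2 site 3 (chr10:67537787-67537816, plus strand, CArG box): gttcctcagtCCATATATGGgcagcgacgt
The Nab1 matches began 141, 109 and 38 bases before its listed start, inside the annotated span of the gene. Egr2 has 5 listed starts, and each of the 2 CArG boxes began 72 bases before a listed start. None of the 5 motifs was found in the windows of Egr4 and Nab2. G and C made up 80.8% of the Nab1 window, 68.0% for Egr4, 72.8% for Nab2 and 54.0% to 71.2% for Egr2. A match or its absence describes these letters alone and says nothing of binding.

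Values were read as FPKM (fragments scaled for transcript length and library size) at P10 and as TPM (transcript shares on a fixed total) at 8 weeks and in culture. Both scale for length, so genes can be compared within a library, while levels in FPKM and TPM are not set against each other. A P10 library held 17623 to 18470 genes above 0, a Control 8w library 11163 to 11397, the other 8-week libraries 15382 to 16709 and a culture library 15537 to 15998. In Control 8w, replicates 2 and 3 had 97.43% of detected genes in common, against 78.38% and 77.81% in common with replicate 1. They may be repeats of 1 library and were averaged, so that Control 8w had n = 2. The 8 stem cell and radial glia markers, among them Nes and Sox2, were above 0 in every library, as labelled. Some endothelial, pericyte, microglial, oligodendrocyte and neuronal markers were also above 0 in each sorted library, and fewer cells of a type cannot be told apart from less RNA per cell.

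**Figure D1:**
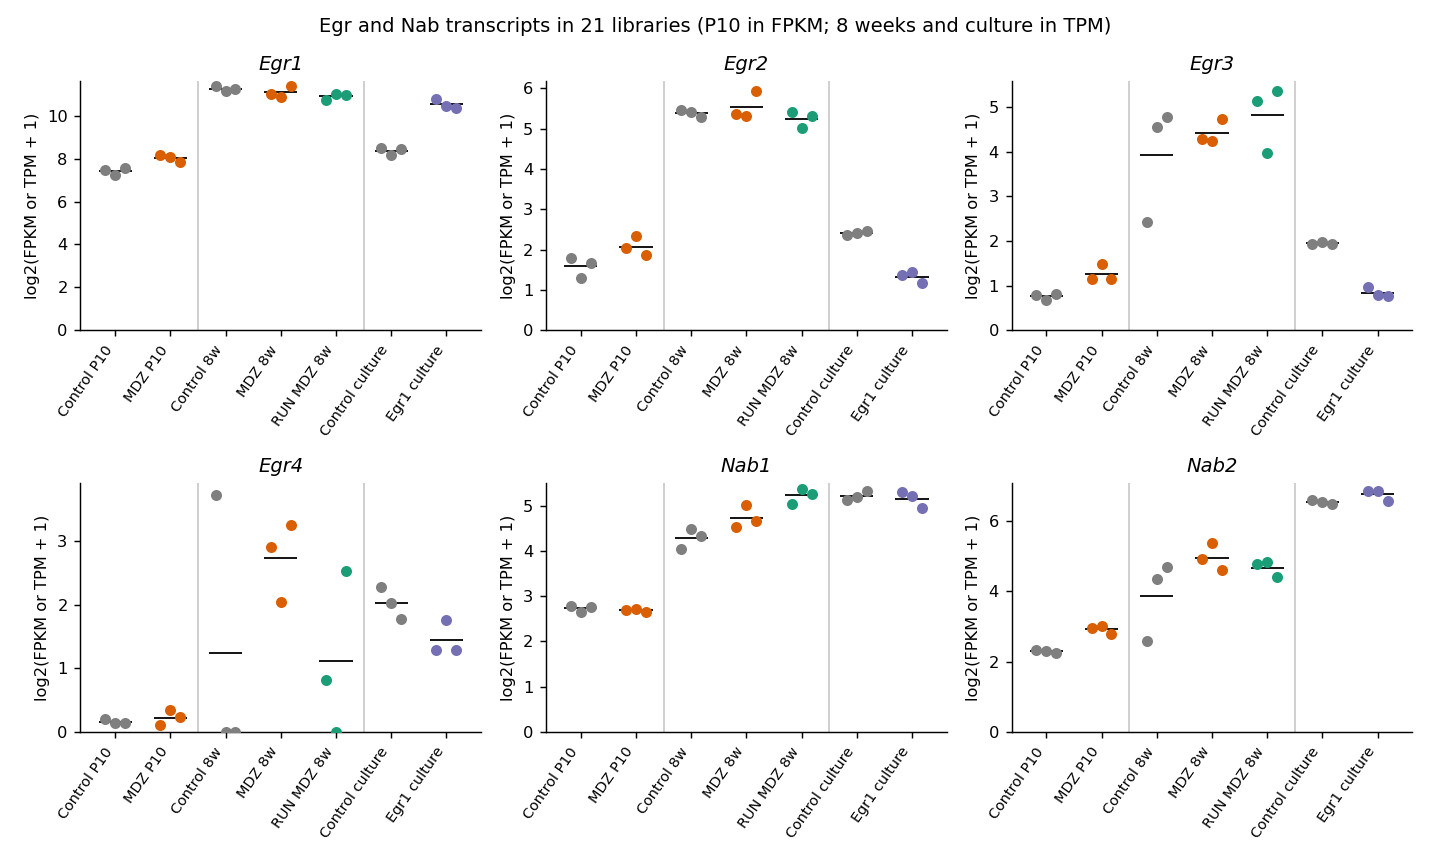
Level of each of the 6 genes in each library, as log2(value + 1) on the vertical axis, by group on the horizontal axis. Points are libraries, short lines are means of the 3 points of a group, and grey vertical lines separate P10 (FPKM), 8 weeks (TPM) and culture (TPM). Egr1 is far above the other members in every group, and Egr4 touches 0 in 3 libraries of 8-week cells.

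Egr1 was the main Egr transcript everywhere. It supplied 97.79% to 98.56% of the summed Egr1 to Egr4 level of a P10 library, 95.74% to 97.83% at 8 weeks and 96.49% to 97.23% in Control culture. Ranked within its own library, Egr1 was between the 54th and 135th highest gene at P10 and between the 7th and 15th at 8 weeks. In Control culture it ranked 423rd to 567th. The order below Egr1 differed between the tables. In Control P10, Nab1 (5.32 to 5.87 FPKM) was above Nab2 (3.74 to 4.06 FPKM), followed by Egr2 (1.48 to 2.44), Egr3 (0.605 to 0.751) and Egr4 (0.0989 to 0.150), and no 2 neighbours in this order overlapped. In Control culture, Nab2 (88.9 to 96.4 TPM) was above Nab1 (33.8 to 39.0 TPM) and Egr2 (4.17 to 4.55 TPM), while Egr4 (2.43 to 3.88 TPM) overlapped Egr3 (2.83 to 2.95 TPM). At 8 weeks the ranges of Egr3, Nab1 and Nab2 overlapped in Control 8w and in MDZ 8w.

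On postnatal day 10, the day after the last dose, Egr1, Egr2, Egr3 and Nab2 were higher in every midazolam library than in every control library, and Nab1 was at the same level in both groups. No member passed the test over all genes (limma-trend on log2(value + 1), Benjamini-Hochberg adjusted p below 0.05). Of the 12914 genes tested, 0.00774% passed in either direction. At an unadjusted p below 0.05 the members had 4 of 5 tested, against 12.2% of all genes, and 4 were higher without overlap, against 12.2%, with 0 lower, against 6.61%. The sixth, Egr4, had a mean below 1 FPKM and was not tested. Egr3, counted among the 4, met this filter only through its midazolam libraries, with means of 0.697 FPKM in Control P10 and 1.42 FPKM in MDZ P10. These counts are thus descriptions.

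Egr1 (chromosome 18, 34861207 to 34864956) measured 177.5, 149.7 and 186.6 FPKM in Control P10 replicates 1 to 3 and 289.1, 269.4 and 230.7 FPKM in MDZ P10. The lowest midazolam library lay above the highest control. The means were 171 ± 19.2 and 263 ± 29.7 FPKM (SD, n = 3 each), a ratio of 1.54 and a log2 change of 0.62 ± 0.11 (SE; limma adjusted p = 0.206). Egr2, best known from Schwann cell myelination and hindbrain patterning, was at 2.44, 1.48 and 2.17 FPKM in Control P10 and 3.11, 4.04 and 2.62 FPKM in MDZ P10. Its groups did not overlap, although the lowest midazolam value came close to the highest control (log2 0.49 ± 0.15, limma adjusted p = 0.297). Egr3, which in neurons follows Egr1 after activity, was near the floor, at 0.735, 0.605 and 0.751 FPKM in Control P10 and 1.24, 1.80 and 1.22 FPKM in MDZ P10. All midazolam libraries lay above all controls and the ratio of the means was 2.03 (log2 0.50 ± 0.12 on the scale with 1 added, limma adjusted p = 0.227). Egr4 was at 0.150, 0.0989 and 0.101 FPKM in Control P10 and at 0.0777, 0.269 and 0.176 FPKM in MDZ P10. Its groups overlapped, and MDZ P10 held both the lowest and the highest value.

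The 2 corepressors differed at P10. Nab2 was at 4.06, 3.93 and 3.74 FPKM in Control P10 and at 6.70, 7.10 and 5.95 FPKM in MDZ P10. Both groups were tight and well apart. The means were 3.91 ± 0.162 and 6.58 ± 0.585 FPKM, a ratio of 1.68 (log2 0.62 ± 0.07), and Nab2 ranked 5th of all genes by p, with an adjusted p of 0.0723 by limma. It passed without Control P10 replicate 2 (adjusted p = 0.0313), the library of lowest relative depth (0.571 of the deepest), and with library quality weights (adjusted p = 0.0432). The adjusted p of Nab2 ran from 0.0313 to 0.584 over its 15 alternatives. Nab1 was at 5.87, 5.32 and 5.73 FPKM in Control P10 and at 5.51, 5.60 and 5.27 FPKM in MDZ P10. The 2 groups interleaved (log2 -0.04 ± 0.06, limma adjusted p = 0.83). The order of the corepressors was opposite in the 2 groups. Nab2 was 0.652 to 0.740 of Nab1 in the control libraries and 1.13 to 1.27 of it after midazolam, a description that was not tested.

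The proportion of Nab2 to Egr1 within a library overlapped between the P10 groups. There were 38.04 to 49.88 units of Egr1 per unit of Nab2 in Control P10 and 37.95 to 43.18 in MDZ P10. The mean difference between groups in the log2 ratio of Nab2 to Egr1 was 0.0069 (exact two-sided permutation p = 1.0) and 0.113 with a pseudocount of 0.1. For Nab1 the same difference was -0.66, without overlap, at p = 0.1, the smallest the exact permutation test allows for 3 against 3 (adjusted p = 0.25 over the 5 ratios of that comparison). The Egr4 ratio was likewise lower without overlap, by -0.55 (same exact test, p = 0.1, adjusted p = 0.25), and by -0.33 with a pseudocount of 0.1. The ratios of Egr2 and Egr3 to Egr1 overlapped between the groups (p = 0.4 and p = 0.5 by the same exact test).

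**Figure D2:**
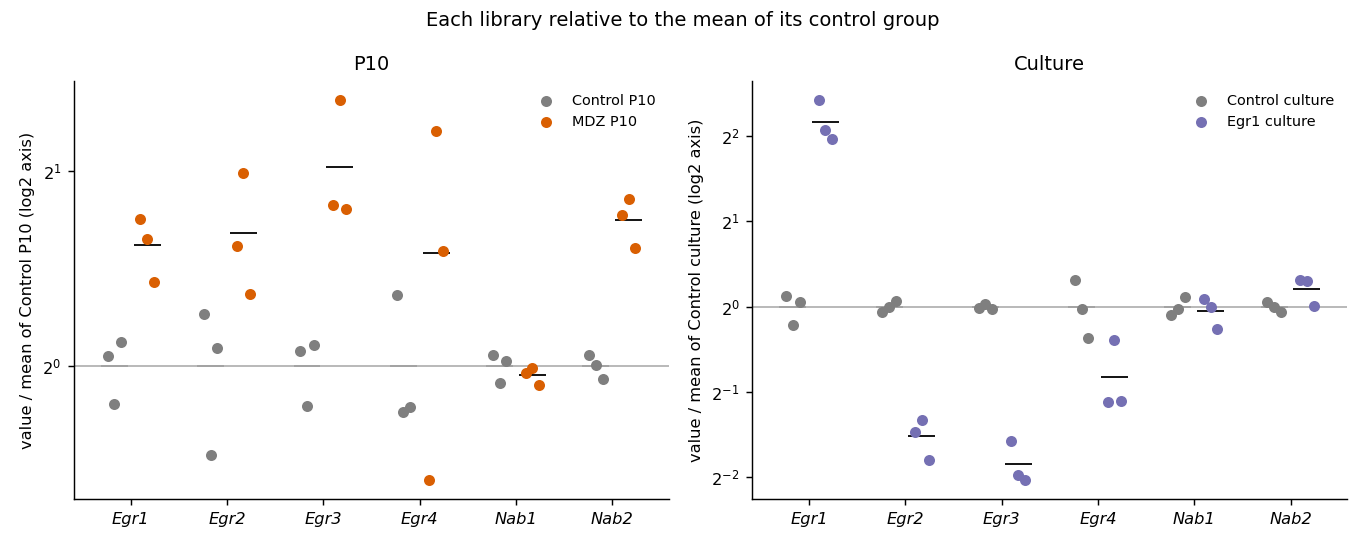
Each library's value divided by the mean of its control group, on a log2 axis, at P10 (left, Control P10 grey, MDZ P10 orange) and in culture (right, Control culture grey, Egr1 culture purple). Points are libraries and short lines are group means. At P10 the midazolam points of Egr1, Egr2, Egr3 and Nab2 lie above all control points and those of Nab1 among them, and in culture the Egr1 points are raised while those of Egr2, Egr3 and Egr4 are lowered.

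The genes around the Egr factors at P10 had 0 calls, where 1 of all genes passed. Of 16 genes of the ERK and serum response factor arm, 2 had an unadjusted limma p below 0.05, against 12.2% of all genes. In this list 2 were higher and 1 lower without overlap, 7 were positive and 9 negative, and the median log2 change was -0.0032 against 0.015 for all genes. Mapk3 (ERK1), a kinase of this arm, was at 40.0 ± 5.18 FPKM in Control P10 and at 38.7 ± 0.976 FPKM after midazolam. The 13 NuRD and deacetylase genes, partners of the Nab proteins, had 0 passed (1 unadjusted) and a median of -0.0052. The 25 tested of 30 reported Egr target genes also had 0 passed (4 unadjusted, median 0.02), with 3 higher and 1 lower without overlap. Vegfa, for example, was at 132.5 ± 9.66 against 110.6 ± 6.17 FPKM (limma adjusted p = 0.274). The 20 tested immediate early genes outside the Egr family had 0 passed and 13 at an unadjusted limma p below 0.05, and 19 were positive, the median was 0.26 and 12 were higher without overlap, against 12.2% of all genes. Fos was at 361.2 ± 40.3 FPKM in the controls, and at 453.7 ± 40.2 FPKM after midazolam (limma adjusted p = 0.314). All 6 pericyte and smooth muscle markers had negative log2 changes, 0 passed (4 unadjusted) and 2 were lower without overlap. Their summed level was 191.5 to 228.5 FPKM in Control P10 and 141.7 to 166.5 FPKM in MDZ P10, and no marker was at 0. All 5 oligodendrocyte markers were negative and all 4 oligodendrocyte precursor markers positive, with 0 at an unadjusted p below 0.05 in either list. The other cell type lists held changes of both signs. Oligodendrocyte markers summed to 2030 FPKM in Control P10 replicate 2, without which Nab2 passed, against 867.6 and 965.1 FPKM in replicates 1 and 3. The part of cell types in the Egr and Nab values was not tested.

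At 8 weeks the ranges of MDZ 8w and Control 8w overlapped for all 4 Egr factors. None of the 6 members passed in MDZ 8w against Control 8w by limma, where 5.13% of 15264 genes did, and 1 of 6 had an unadjusted p below 0.05, against 22.8% of all genes. Nab1 and Nab2 were higher without overlap, against 27.8% of all genes, and 0 members were lower, against 11.3%. Over all genes the median log2 change was 0.36, and quantile normalization took it to -0.055, so small positive changes are near the shift of the whole table.

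Egr1 was at 2706, 2231 and 2394 TPM in Control 8w replicates 1 to 3, at 2049, 1881 and 2692 TPM in MDZ 8w and at 1705, 2032 and 1975 TPM in RUN MDZ 8w. MDZ 8w spanned nearly the whole control range, and all running libraries were below all controls. The log2 change was -0.20 ± 0.19 in MDZ 8w against Control 8w (limma adjusted p = 0.569), and 0.026 after quantile normalization. Egr2 was at 43.3, 41.5 and 38.1 TPM in Control 8w, at 40.0, 39.0 and 60.4 TPM in MDZ 8w and at 41.2, 31.5 and 38.6 TPM in RUN MDZ 8w. A single MDZ 8w library stood high, and its omission turned the change in MDZ 8w from 0.13 ± 0.30 to -0.070.

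Egr3 was at 4.35, 22.6 and 26.4 TPM in Control 8w, at 18.7, 17.8 and 25.7 TPM in MDZ 8w and at 34.0, 14.7 and 39.8 TPM in RUN MDZ 8w. Control 8w replicate 1 stood far below the rest. With it the change in MDZ 8w was 0.88 ± 0.72 (limma adjusted p = 0.496), and without it -0.25. Egr4 was at 12.3 TPM in Control 8w replicate 1 and listed at 0 in replicates 2 and 3. It was at 6.56, 3.13 and 8.57 TPM in MDZ 8w and at 0.762, 0 and 4.77 TPM in RUN MDZ 8w. The same control library was thus low for Egr3 and the highest of all for Egr4, whose change in MDZ 8w was 0.87 ± 1.19 (limma adjusted p = 0.70) and -0.70 after quantile normalization. Without that library it was 2.74 (limma adjusted p = 0.114). The sign is that of the log2 scale, since the mean TPM of Egr4 was 0.989 of that in Control 8w.

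Nab2 was at 5.05, 19.4 and 24.8 TPM in Control 8w, at 29.3, 40.1 and 23.2 TPM in MDZ 8w and at 26.3, 27.4 and 20.1 TPM in RUN MDZ 8w. Averaging control replicates 2 and 3 gave 22.1 TPM, just under the lowest MDZ 8w value, while replicate 3 alone was above it. The change in MDZ 8w was 1.40 ± 0.59 (limma adjusted p = 0.211), and 0.43 without Control 8w replicate 1. The overlapping neighbour Stat6 was at 9.16 ± 13.0 TPM in Control 8w, at 6.40 ± 3.47 TPM in MDZ 8w and at 22.0 ± 5.89 TPM with running. Nab1 was at 15.5, 21.3 and 19.1 TPM in Control 8w, at 22.1, 31.2 and 24.4 TPM in MDZ 8w and at 31.9, 40.3 and 37.4 TPM in RUN MDZ 8w. The 3 groups formed a staircase without overlap, with means of 17.8 ± 3.33 (n = 2), 25.9 ± 4.75 and 36.5 ± 4.28 TPM (n = 3 each). The change in MDZ 8w was 0.51 ± 0.34 (limma adjusted p = 0.40), and 0.11 after quantile normalization.

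**Figure D3:**
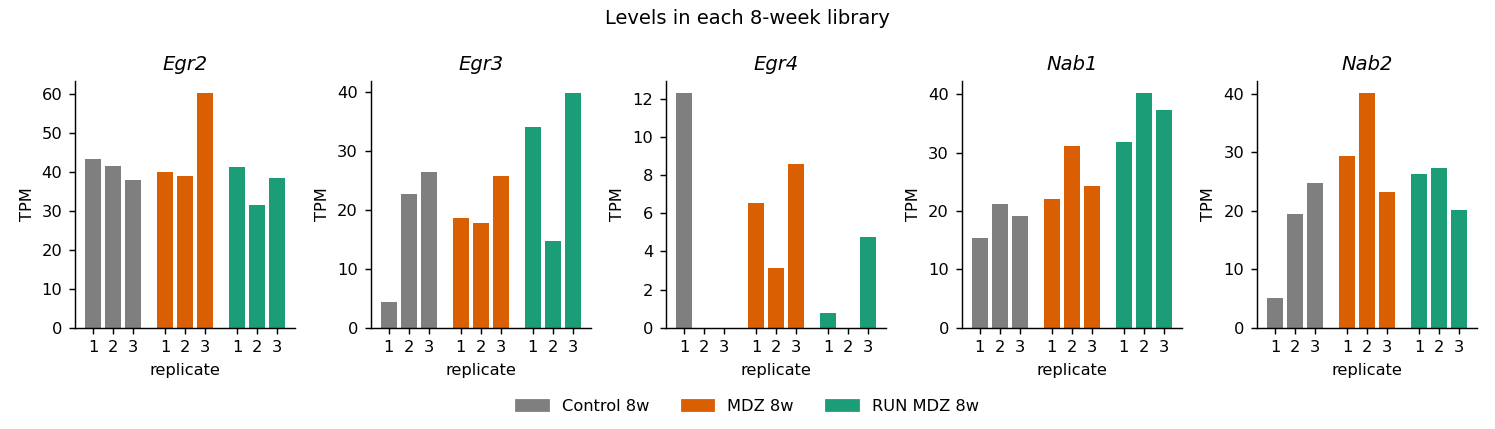
Level in TPM (vertical axes, from 0) of Egr2, Egr3, Egr4, Nab1 and Nab2 in each 8-week library, by replicate number, with Control 8w grey, MDZ 8w orange and RUN MDZ 8w green. Bars are single libraries. Nab1 climbs from 15.5 TPM in the lowest control to 40.3 TPM in the highest running library, and Control 8w replicate 1 is lowest for Egr3 and Nab2 and highest for Egr4.

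Running in exposed mice moved no member past the threshold. In RUN MDZ 8w against MDZ 8w, limma passed 0.157% of genes and 0 of 6 members, and 0 members had an unadjusted p below 0.05, against 9.98% of genes. Nab1 was higher without overlap, against 14.4% of genes (0 members were lower, against 10.5%), at a log2 change of 0.49 ± 0.30 (limma adjusted p = 0.711). The changes of Egr1, Egr2, Egr3 and Nab2 were -0.20 ± 0.17, -0.30 ± 0.27, 0.40 ± 0.64 and -0.30 ± 0.53. Egr4 was at -1.63 ± 1.07 with overlapping groups.

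Against Control 8w, which both exposed groups share as their comparison, RUN MDZ 8w had 0 of 6 members passed by limma, where 11.3% of genes did, and 1 at an unadjusted p below 0.05, against 27.2%. Nab1 was higher without overlap (24.4% of genes) and Egr1 lower without overlap (10.6%). Nab1 had a ratio of 2.05 and a log2 change of 1.00 ± 0.34 (limma adjusted p = 0.101), beside a median of 0.51 for all genes. After quantile normalization the change was 0.56. Nab1 passed when Control 8w replicates 2 and 3 were kept apart (log2 0.94, adjusted p = 0.0465), and its adjusted p ran from 0.0465 to 0.691 over 18 alternatives. The change of Egr1 was -0.40 ± 0.19 (limma adjusted p = 0.222). Those of Egr2, Egr3 and Nab2 were -0.17 ± 0.30, 1.27 ± 0.72 and 1.10 ± 0.59. Without Control 8w replicate 1, Egr3 and Nab2 came to 0.15 and 0.14, and Egr4 turned from -0.75 ± 1.19 to 1.12.

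Among pathway genes at 8 weeks, Mkl1, a cofactor of serum response factor, rose from 1.35 ± 1.91 to 22.7 ± 0.867 TPM in MDZ 8w (limma adjusted p = 0.0154). Mapk3 fell from 279 ± 93.9 to 137.6 ± 10.9 TPM (adjusted p = 0.0499), so that 1 of 16 ERK and serum response factor genes rose and 1 fell, at a median of 0.33. Of all genes, 4.68% rose and 0.452% fell in this comparison, and with library quality weights the number passed went from 783 to 19. None of the 13 NuRD genes passed by limma in any 8-week comparison. At an unadjusted p below 0.05 there were 0 in MDZ 8w against Control 8w, against 22.8% of all genes. There was 1 in RUN MDZ 8w against MDZ 8w (9.98% of genes) and 2 in RUN MDZ 8w against Control 8w (27.2%). The NuRD medians in these 3 comparisons were -0.052, -0.28 and -0.38, beside 0.36, 0.050 and 0.51 for all genes. Of the 13 genes, 7, 11 and 9 were negative. In the 2 running comparisons 3 and 4 were lower without overlap (10.5% and 10.6% of genes) and 0 higher (14.4% and 24.4%). Chd4, the remodelling ATPase, was at 313 ± 46.8 TPM in Control 8w, at 288 ± 41.4 TPM in MDZ 8w and at 227 ± 18.4 TPM with running. Of 28 tested target genes 3 rose in MDZ 8w, namely Id4 (50.5 ± 1.28 to 231 ± 14.8 TPM), Arc (0.0241 ± 0.0341 to 16.0 ± 4.55 TPM) and Pdgfa, which averaged 19.9 TPM and was listed at 0 in all Control 8w libraries. Other immediate early genes had 4 of 21 higher and 0 lower, among them Jun, which rose from 735 ± 24.3 to 1310 ± 243 TPM (limma adjusted p = 0.0462), and Maff, Nr4a2 and Atf3, whose Control 8w means were below 3 TPM. Arc, Pdgfa, Nr4a2 and Atf3 averaged below 1 TPM in Control 8w, so they met the filter only through the midazolam groups. Mkl1 was at 0 in Control 8w replicates 2 and 3. Control 8w libraries held 11163 to 11397 genes above 0, fewer than the other 8-week libraries, so these rises start at or near the floor. In RUN MDZ 8w against MDZ 8w none of these 4 lists had a member past the threshold, where 0.157% of all genes passed. An unadjusted limma p below 0.05 was seen for 9.98% of all genes. In the lists it was seen for 0 of 16 ERK and serum response factor, 1 of 13 NuRD, 3 of 28 target and 5 of 21 other immediate early genes. Against Control 8w, running cells had 1 ERK and serum response factor gene, 5 target genes and 8 other immediate early genes higher, with 1 target gene (Gadd45b) and 1 immediate early gene (Npas4, a neuronal activity factor) lower, where 9.41% of all genes rose and 1.90% fell and 0 passed with quality weights. Npas4 fell from 74.3 ± 8.32 to 11.4 ± 7.58 TPM (limma adjusted p = 0.0245).

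Cell type markers also differed between the 8-week groups. Counts of markers passed are read beside all genes. In MDZ 8w against Control 8w 4.68% of genes rose and 0.452% fell, and in RUN MDZ 8w against Control 8w 9.41% and 1.90%. In RUN MDZ 8w against MDZ 8w 0.157% passed in either direction. For RUN MDZ 8w against Control 8w, 0 genes passed with quality weights or in a fit of the 2 groups alone. The 6 neuroblast markers summed to 3531 to 3764 TPM in Control 8w, to 1932 to 2721 TPM in MDZ 8w and with running to 1798 to 2179 TPM, with 2 of 6 lower in MDZ 8w and 4 of 6 lower in RUN MDZ 8w against Control 8w. The 8 stem cell markers summed to 2039 to 2407, 3236 to 4862 and 3054 to 3456 TPM, with 3 and 2 of 8 higher. The 6 endothelial markers summed to 255.7 to 313.8, 209.4 to 243.4 and 613.7 to 772.8 TPM, with 3 of 6 higher in RUN MDZ 8w against MDZ 8w and 4 of 6 higher in RUN MDZ 8w against Control 8w. The 6 pericyte and smooth muscle markers summed to 2333 to 3434 TPM in Control 8w, 588.4 to 1279 TPM in MDZ 8w and 2123 to 2976 TPM with running. Of these, 1 was lower in MDZ 8w than in Control 8w, and RUN MDZ 8w had 1 higher than MDZ 8w and 2 higher than Control 8w. The 5 oligodendrocyte markers summed to 167.4 to 234.5, 125.3 to 673.6 and 1843 to 2959 TPM, and the 5 astrocyte markers to 439.2 to 523.9, 858.1 to 983.4 and 1429 to 1586 TPM. In RUN MDZ 8w against Control 8w, 5 of 5 oligodendrocyte and 4 of 5 astrocyte markers were higher, and 1 astrocyte marker was higher in MDZ 8w. Camk2a and Mobp were at 0 in all Control 8w libraries, Mag, Tie1 and Col1a1 in replicates 2 and 3, and Gjb6 and 5 of 6 microglial markers in replicate 1. The 5 mature neuron markers summed to 339.5 to 405, 227.7 to 304.7 and 200.7 to 294.2 TPM, with 1 higher in RUN MDZ 8w against Control 8w. That marker was Camk2a, and the other 4 had negative log2 changes. Camk2a, and Mobp among the 5 oligodendrocyte markers higher, met the filter only through the midazolam groups. Sums of the oligodendrocyte precursor and microglial markers overlapped between the 8-week groups. The part of cell types in any 8-week member value was not tested.

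**Figure D4:**
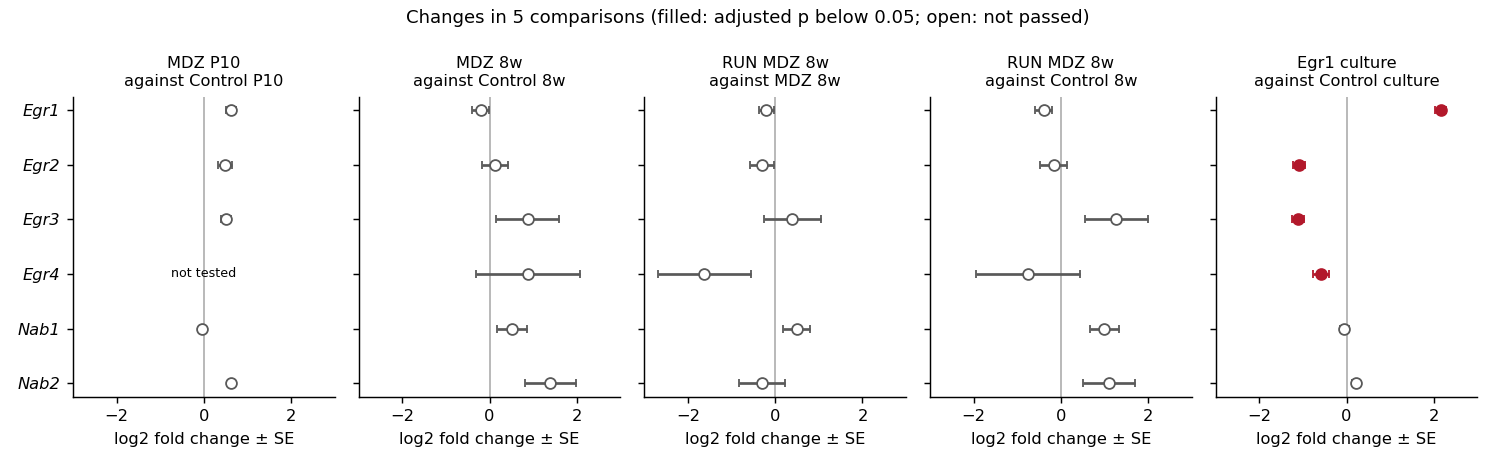
Log2 fold change ± SE from limma (horizontal axis) of each member in each of the 5 comparisons, on log2(value + 1). Filled points passed at an adjusted p below 0.05 and open points did not. The 4 filled points are Egr1 at 2.16, Egr2 at -1.09, Egr3 at -1.11 and Egr4 at -0.58, all in culture.

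In culture, where Egr1 was added, the other 3 Egr genes fell and neither Nab gene passed. Egr1 itself, whose reads include both the added and the cell's own copy, was at 360.7, 284.7 and 344.3 TPM in Control culture and at 1769, 1390 and 1291 TPM in Egr1 culture. Every library labelled Egr1 culture was above every control, with a ratio of 4.50 between means of 330 ± 40.0 and 1483 ± 252 TPM (log2 2.16 ± 0.13, limma adjusted p = 4.02e-06). Egr1 rose to rank 49 to 79 in its library. With it, 4 of 6 members passed, where 44.2% of 12402 genes did. Since Egr1 was added, its pass checks the labels and is no finding. Of the others, Egr2, Egr3 and Egr4 passed, all as lower, where 29.0% of genes fell and 15.2% rose. The same 3 were lower without overlap (37.1% of all genes lower and 18.4% higher). These counts are descriptions, since Egr3, counted among the 3, met the filter only through Control culture. With median-of-ratios scaling the median change of all genes moved from -0.10 to 0.0053, and the genes that rose and fell went from 1888 and 3598 to 2776 and 2721.

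Egr2 was at 4.17, 4.33 and 4.55 TPM in Control culture and at 1.58, 1.73 and 1.25 TPM in Egr1 culture. The groups were far apart beside their spread. The mean fell from 4.35 ± 0.189 to 1.52 ± 0.246 TPM, 2.86-fold lower (log2 -1.09 ± 0.13, limma adjusted p = 0.000225). Egr3 was at 2.85, 2.95 and 2.83 TPM in Control culture and at 0.968, 0.732 and 0.705 TPM in Egr1 culture. It fell 3.59-fold between the means (log2 -1.11 ± 0.13, limma adjusted p = 0.000246), with a control spread of 0.0662 TPM. Its mean in Egr1 culture, 0.802 TPM, lay below the filter of 1, which it met only through Control culture. Both Egr2 and Egr3 passed as lower in 13 of 13 alternatives. Egr4 was at 3.88, 3.09 and 2.43 TPM in Control culture and at 1.44, 2.40 and 1.46 TPM in Egr1 culture. The highest Egr1 culture value came close to the lowest control. Egr4 passed as lower (log2 -0.58 ± 0.19, limma adjusted p = 0.0324), but in 7 of 13 alternatives it did not, including the omission of Control culture replicates 1 or 2 or Egr1 culture replicates 1 or 3 (adjusted p 0.112, 0.0648, 0.0874 and 0.0858).

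Nab2 was at 96.4, 92.4 and 88.9 TPM in Control culture and at 114.6, 113.8 and 93.4 TPM in Egr1 culture. Egr1 culture replicate 3 lay within the control range and the other two above it. The log2 change was 0.21 ± 0.09 (limma adjusted p = 0.0831). Nab2 passed without that library (0.30, adjusted p = 0.00568), with median-of-ratios scaling (0.32, adjusted p = 0.0091), after quantile normalization (0.24, adjusted p = 0.0309) and with library quality weights (0.27, adjusted p = 0.00714). Nab1, whose window holds the 3 Egr-type matches shown above, was at 33.8, 35.3 and 39.0 TPM in Control culture and at 38.5, 35.9 and 30.0 TPM in Egr1 culture. These groups overlapped over most of their range (log2 -0.05 ± 0.10, limma adjusted p = 0.702), and the sign of the change turned to 0.055 with median-of-ratios scaling.

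Control culture held 3.08 to 3.88 units of Egr1 per unit of Nab2 and Egr1 culture 12.21 to 15.43. Since Egr1 was added, this ratio restates the rise of Egr1 and is not tested. Egr1 supplied 99.65% to 99.78% of the summed Egr level of an Egr1 culture library.

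Pathway genes in Egr1 culture are read beside all genes, of which 15.2% rose and 29.0% fell. Of 16 ERK and serum response factor genes 1 rose and 5 fell, near that background, led by Mapk3 (115 ± 3.97 to 55.8 ± 6.32 TPM, limma adjusted p = 2.49e-05), while the kinase Rps6ka3 rose from 32.4 ± 4.17 to 47.4 ± 5.43 TPM. The list's median was -0.13 against -0.10 for all genes. Of 13 NuRD genes 1 rose and 5 fell (median -0.08), among them Mbd3, a core subunit, from 250 ± 19.8 to 179 ± 7.95 TPM and the deacetylase Hdac1 from 76.5 ± 2.58 to 56.8 ± 4.26 TPM. Reported target genes split, with 7 of 23 tested higher and 8 lower. Pdgfb, a growth factor chain, rose from 0.525 ± 0.153 to 7.12 ± 0.659 TPM and Gadd45a, a growth arrest gene, from 72.1 ± 1.51 to 234 ± 21.5 TPM (limma adjusted p = 3.72e-06 and 8.70e-07). Pdgfb and Mmp2, both among the 7 higher, averaged 0.525 and 0.635 TPM in Control culture. They met the filter of 1 only through Egr1 culture, so the count of 7 is a description. Other immediate early genes split as well, with 5 of 18 higher and 8 lower. Ier3 rose from 22.4 ± 1.32 to 120 ± 9.10 TPM, whereas Ier2 fell from 48.4 ± 7.01 to 20.6 ± 1.15 TPM and Junb, a partner of Fos, from 24.3 ± 3.16 to 8.69 ± 1.69 TPM.

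Cell type markers differed between the cultures as well, read beside the 15.2% of all genes that rose and the 29.0% that fell. The 8 stem cell markers summed to 5641 to 6095 TPM in Control culture and 4992 to 5238 TPM in Egr1 culture, with 3 higher and 3 lower. The 5 mature neuron markers summed to 5.98 to 6.63 and 18.4 to 23.1 TPM, with 3 of 4 tested higher, and none was at 0. Neuroblast markers summed to 34.49 to 40.87 and 37.16 to 43.94 TPM, with 0 of 3 tested passed. Low sums were seen for oligodendrocyte markers (1.01 to 1.68 and 6.87 to 9.57 TPM, 2 of 2 tested higher) and pericyte markers (2.89 to 3.70 and 12.7 to 20.5 TPM, 1 of 1 tested higher). With so low a sum in Control culture, at least 1 of the 2 oligodendrocyte markers tested met the filter only through Egr1 culture. Their count is thus a description. Astrocyte markers summed to 393 to 421.7 TPM in Control culture and 267.9 to 288.3 TPM in Egr1 culture (1 of 3 tested higher and 1 lower). Oligodendrocyte precursor markers summed to 499.3 to 515.1 and 329.3 to 380.9 TPM (1 of 3 tested higher and 2 lower). Endothelial markers stayed at or below 1.48 TPM in sum, and microglial markers summed to 3.46 to 3.72 and 1.85 to 2.50 TPM with 1 of 1 tested lower. Their part in the member values was not tested.

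**Figure D5:**
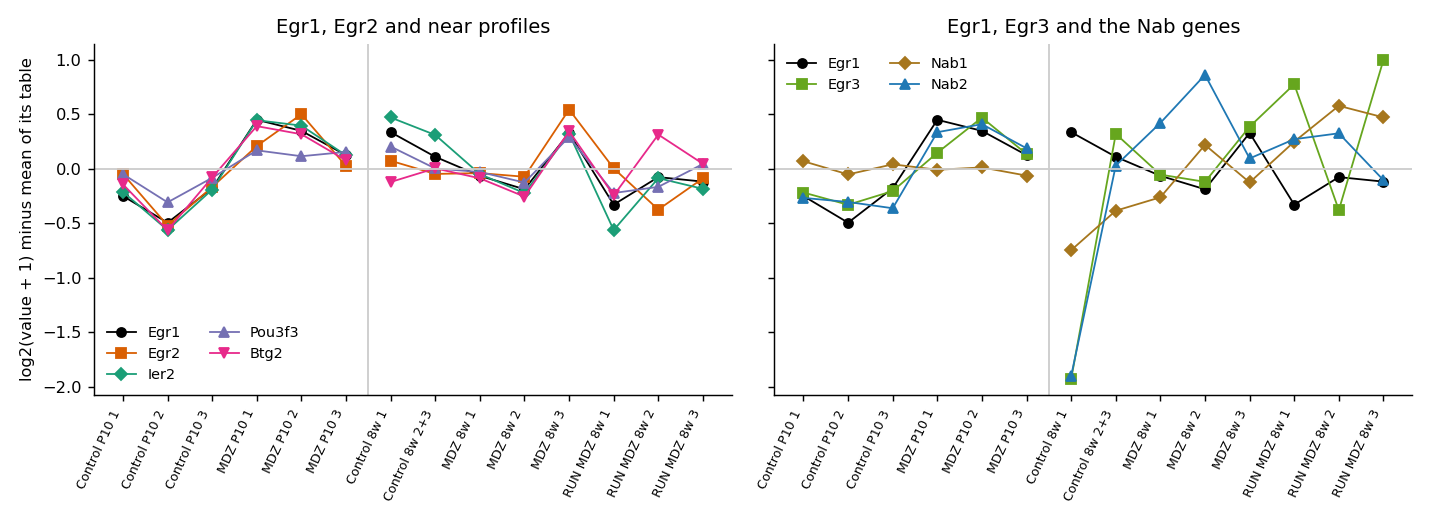
Deviation of log2(value + 1) from the gene's mean within P10 (left of the grey line) and within 8 weeks (right of it), for 14 samples on the horizontal axis. The lines only join points. At left, Egr2, Ier2, Pou3f3 and Btg2 stay near Egr1 in nearly all samples, and at right Egr3 and Nab2 follow Egr1 at P10 and part from it at 8 weeks, with both near -1.9 in Control 8w replicate 1.

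Over the 6 P10 and 8 eight-week samples, the likeness of 2 profiles was taken as the root mean square difference of their log2(value + 1), each centred within its age. Among 12850 genes the profile nearest to Egr1 was that of Ier2 (0.0954), followed by Pou3f3 (0.146), Mex3d (0.170), Btg2 (0.178) and Pcif1 (0.184). Egr2 was 7th (0.187), beside a median gene at 0.531. Nab1, Nab2, Egr3 and Egr4 ranked 6100th, 8155th, 8389th and 9351st. Control 8w replicate 1 weighs heavily here. Without it, an alternative chosen after the data were seen, the distance to Egr1 went from 0.709 to 0.316 for Nab2 (rank 2380) and from 0.751 to 0.394 for Egr3 (rank 5590), beside a median gene at 0.423, while Ier2 stayed nearest to Egr1 and 4 of its 5 nearest genes remained. For Egr2 the nearest were Pou3f3, Egr1 and Pik3r2 (0.173 to 0.187). Egr3 was nearest to Dgke, C78339 and Tspyl5 (0.238 to 0.262) and had Nab2 at rank 974, and Nab2 was nearest to Ric8, Adprhl2 and Xpnpep1 (0.229 to 0.239) and had Egr3 at rank 1255. Nab1 was nearest to Myo19, Lysmd2 and S1pr1 (0.0929 to 0.124). The nearest of Egr4 were Hook2 (0.470) and Cmc2 (0.477). Without Control 8w replicate 1, 0 of the 3 nearest genes remained for Egr3, Nab2 and Egr4 alike, Egr3 being nearest to Zbtb38 (0.154), Nab2 to Plk2 (0.196) and Egr4 to Hhipl1 (0.254), and Nab2 came to rank 6730 for Egr3 and Egr3 to rank 7801 for Nab2. These ranks are descriptions, and all profiles share the same libraries and depth.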

How the data were processed

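The deposited P10 files were read as holding FPKM and the deposited 8-week and culture files as holding TPM. No label states these units: the TPM columns share a common total and the FPKM columns sum to between 241508 and 252344. Per the submitters' processing notes, mm10, TopHat, Bowtie2 and DESeq2 were used by the authors, with no role or version. Quantifier, annotation, strand setting and read depth: not given in the sources used here, so no counting interval is given. Low FPKM and TPM values at P10 and in culture fall in steps, which gave relative depths of 0.571 to 1 and 0.899 to 1.

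From these values limma 3.58.1 (R 4.3.3, trend) was fitted on log2(value + 1) to genes with a mean of at least 1, separately at P10, at 8 weeks (3 groups, 1 spread) and in culture, with Benjamini-Hochberg adjustment over all genes tested and calls below 0.05. This scale understates changes of low genes. The steps were tested on simulated data. Ratios within a library used exact two-sided permutation tests. Named were all 6 members, list genes that passed (at most the 4 of largest change, else the 2 highest), and the nearest 5 profiles for Egr1 and 3 for each other member. Some genes that this rule names are not reported here. The members and lists were chosen with earlier results of these data known. Alternatives covered pseudocount, filter, scaling, quality weights, samples in the fit, a replicate block, each library left out and, at P10, sex (a covariate from Xist and Y-linked genes) and rescaled FPKM. Accessibility (ATAC) and ChIP samples were not analysed here.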

Additional observations from a re-analysis of the deposited data

How the results depend on the processing

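Without read counts, the precision of low values such as Egr3 and Egr4 at P10 is unknown, and Control 8w rests on 2 samples that differ widely. The number of members passed was 0 at P10 but 1 (Nab2) with library quality weights. It ran from 0 to 1 when 1 library at a time was left out, the 1 coming without Control P10 replicate 2. With sex as a covariate at P10 the number was 0 and 0 genes passed (Nab2 adjusted p = 0.215). It was 0 for RUN MDZ 8w against Control 8w but 1 (Nab1) with Control 8w replicates 2 and 3 kept apart. In culture it was 4, and 3 to 5 over 13 alternatives, each count including the added Egr1. The other two comparisons gave 0 members in all 18 alternatives of each. The cause of these differences was not tested.

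Signs turned as follows. In MDZ 8w against Control 8w, Egr2 was at -0.070 without MDZ 8w replicate 3 (-0.070 to 0.24 over omissions), Egr3 at -0.25 without Control 8w replicate 1 (-0.25 to 0.97), and Egr1 and Egr4 at 0.026 and -0.70 after quantile normalization. In RUN MDZ 8w against Control 8w, Egr4 was at 1.12 without Control 8w replicate 1 (-1.46 to 1.12 over omissions). In culture Nab1 was at 0.055 with median-of-ratios scaling, 0.020 after quantile normalization, 0.0047 with library quality weights, 0.0032 without Control culture replicate 3 and 0.046 without Egr1 culture replicate 3 (-0.13 to 0.046 over omissions). With a pseudocount of 0.1 the P10 differences in log2 ratio to Egr1 turned from -0.13 to 0.044 for Egr2 and from -0.11 to 0.29 for Egr3. Egr4 in culture did not pass without a filter, with median-of-ratios scaling or with quality weights (adjusted p 0.0562, 0.058 and 0.0807). Egr4 at P10 had a log2 change of 0.07 ± 0.06 without a filter (adjusted p = 0.731), a value added after the data were seen. Egr3 fell below the filter at P10 in 1 of 6 omissions.

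The count of all genes passed was 1 at P10 (0 to 101 over 15 alternatives, 101 without Control P10 replicate 2). It was 783 for MDZ 8w against Control 8w (19 with quality weights, 2928 without Control 8w replicate 1, 207, 294 and 281 without MDZ 8w replicates 1, 2 and 3, 461 to 1410 over pseudocounts, 152 after quantile normalization, 1787 with replicates 2 and 3 kept apart). For RUN MDZ 8w against MDZ 8w it was 24 (0 to 432, with 432 under quality weights and 360 in a fit of the 2 groups alone, 275 without Control 8w replicate 1, 0 without any single MDZ 8w library, 10, 16 and 13 without RUN MDZ 8w replicates 1, 2 and 3), and for RUN MDZ 8w against Control 8w 1727 (0 to 3952, with 0 under quality weights and in a fit of the 2 groups alone, 406 after quantile normalization, 2904 with replicates 2 and 3 kept apart, 3952 without Control 8w replicate 1, 910 to 987 without an MDZ 8w library). In culture it was 5486 (4383 to 6077). Replicate numbers showed no strong pairing of the samples: deviations of same-numbered libraries correlated at -0.08 to 0.13. Whether such libraries shared a batch was not tested. With the number as a replicate block, the members passed were 0, 0, 0, 0 and 4 in the 5 comparisons, as without it, and the genes passed 0 at P10, 1227, 14 and 2595 at 8 weeks and 4646 in culture. Ranked by likeness, all 5 nearest genes of Egr1 remained with a pseudocount of 0.1.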
